A study of Mus musculus with 2 samples.

Results

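The TAM receptors Mertk, Axl and Tyro3, their ligands Gas6 and Pros1, and the macrophage scavenger receptors Mrc1, Msr1, Cd163, Stab1 and Timd4 were followed in single nuclei of mouse visceral fat. These 10 genes were chosen by symbol as a pathway, out of the 56980 genes of the deposited count matrices, and each symbol stood for 1 gene. The nuclei came from the gonadal visceral adipose tissue (VAT) of 2 untreated female C57BL/6J mice aged 2 months, 1 library per mouse, named replicate 1 and replicate 2 here. The series sets young mice against older ones; its other libraries were not analysed here, so cell types of the same 2 mice are compared with each other. The sample descriptions name 10x Genomics and give adipocytes as the cell type, whereas the study's methods name the Singleron GEXSCOPE kit and whole fat.

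Mertk, Axl and Tyro3 are receptor tyrosine kinases that do not bind dying cells directly. Gas6 and protein S, the product of Pros1, bridge them to phosphatidylserine exposed on dying cells, and the signal drives engulfment and dampens inflammatory responses. Scavenger receptors take up glycoproteins, modified lipoproteins, haemoglobin complexes or dying cells, and resident macrophages of fat are known for carrying many of them.

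Nuclei with over 500 genes, over 1000 unique molecular identifiers (UMIs, each 1 captured RNA molecule) and under 15% mitochondrial UMIs were kept. That left 2833 nuclei with 8466237 UMIs in replicate 1 and 12225 nuclei with 48068273 UMIs in replicate 2. The libraries stood apart: the median mitochondrial share was 6.20% in replicate 1 and 0.621% in replicate 2, and 60.9% and 45.7% of all UMIs lay outside the barcodes called as nuclei. Of the barcodes kept, 27 occurred in both libraries. The part of these differences in the values that follow was not tested, so levels and shares of nuclei are given for each library.

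The label of adipocytes held for most nuclei but not for all. Adipocyte-like nuclei numbered 1941 in replicate 1 and 6686 in replicate 2, macrophage-like nuclei 160 and 714, and dendritic-like nuclei 50 and 140. Fibro-adipogenic progenitor (FAP)-like nuclei numbered 231 and 1139, mesothelial-like ones 215 and 1941, endothelial-like ones 56 and 372, and those like smooth muscle 20 and 130. With no fewer than 20 nuclei per library, these 7 types were summed; 15 and 107 nuclei like T and NK cells, 8 and 27 like monocytes, and 137 and 969 without a name were not. Orders and highest levels below refer to the 7 summed types unless other nuclei are named. The 10 genes were left out of the features used for grouping, but the groups were still drawn from the same nuclei and from genes that differ with them, so the tests between types are not independent of the grouping.

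In macrophage-like nuclei all 9 macrophage markers had UMIs, and their summed level was 13736 CPM (UMIs scaled to the same total in every sum) in replicate 1 and 7753 in replicate 2, with Lyz2 the most abundant at 3816 and 1635. The same list summed to 159 and 66.6 CPM in adipocyte-like nuclei. Macrophage-like nuclei also held all 8 adipocyte markers, at 1474 and 964 CPM (Lipe the most abundant at 327 and 185), against 6546 and 5175 in adipocyte-like nuclei. Dendritic-like nuclei held all 9 macrophage markers too, at 4386 and 3082 CPM (Lyz2 2035 and 1497), beside 614 and 981 CPM for 5 of 6 dendritic markers, with Ccr7 at 0 in both libraries. The monocyte list was higher there than the dendritic list, at 1351 and 1236 CPM, nearly all of it Ccr2 (1342 and 1185), with Ly6c2 and Chil3 at 0 in replicate 1, so the name dendritic-like is a label of the cluster and not a settled identity. Mesothelial-like nuclei held all 10 mesothelial markers, at 5393 and 4342 CPM (Upk3b 1858 and 1342), but also all 7 FAP markers at 8803 and 5665 CPM, most of it Dcn (7286 and 4016), against 212 and 301 CPM of the mesothelial list in FAP-like nuclei. How far RNA of neighbouring types enters the members' levels was not tested.

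To test a type, edgeR set it against the average of the other types' log2 levels on 14 sums (2 libraries by 7 types), with the library as a block and Benjamini-Hochberg adjustment over 11597 genes; a gene is called at an adjusted p under 0.05. Tyro3, with 82 UMIs in all nuclei kept, did not pass the count filter, so 9 members were tested. A member can pass that filter through the very type where it is high, so the counts of calls describe the members and support nothing about them as a group. In macrophage-like sums 8 members were called higher, against 13.6% of all genes tested; none was called lower by edgeR, 0 were lower at an unadjusted p under 0.05 and 0 by DESeq2, against 8.91% of all genes.

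Outside macrophage-like nuclei the calls were mixed. In FAP-like sums 2 members were higher (13.4% of all genes) and 6 lower (7.48%), in dendritic-like sums 3 higher (13%) and 3 lower (12.4%; 1 of them Msr1, at 0 UMIs), and in mesothelial-like sums 2 higher (16.9%) and 4 lower (9.3%). In endothelial-like sums 1 member was higher (9.8% of all genes) and 3 lower (4.39%). In smooth muscle-like sums 1 was higher (7.48%) and 0 lower by edgeR (3.63%), with 0 lower at an unadjusted p under 0.05 and 0 by DESeq2. In adipocyte-like sums 0 were higher by edgeR (30.2% of all genes), with 0 at an unadjusted p under 0.05 and 0 by DESeq2, and 7 were lower (28%). By DESeq2 the counts of members called lower were 5 in FAP-like (7.1% of all genes), 2 in dendritic-like (8.92%) and 4 in mesothelial-like sums (6.84%). They were 1 in endothelial-like (3.29%) and 8 in adipocyte-like sums (35.1%). Counts of members called higher were as by edgeR. The DESeq2 shares of all genes called higher were 11.7%, 14%, 16%, 9.68% and 18.7% in the same types and order. In smooth muscle-like sums DESeq2 called 7.67% of all genes higher and 2.2% lower, and in macrophage-like sums 13.7% and 6.18%. Some of these directions did not hold at a mitochondrial limit of 5%, which left fewer nuclei and FAP-like, adipocyte-like and mesothelial-like sums alone, and what turned them was not tested: Cd163 turned from -2.58 to 0.17 and Stab1 from -1.48 to 0.14 in FAP-like sums, and Mrc1 and Stab1 turned in mesothelial-like sums, to 0.15 and 0.31, and 9 more calls in these 3 types were lost. Over all types 17 of 63 member and type pairs were called higher, against 14.9% of all gene and type pairs. Adipocyte-like nuclei, the most numerous type, were thus a type where no member tested was called higher, and macrophage-like nuclei the type with the most members called higher.

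**Figure D1:**
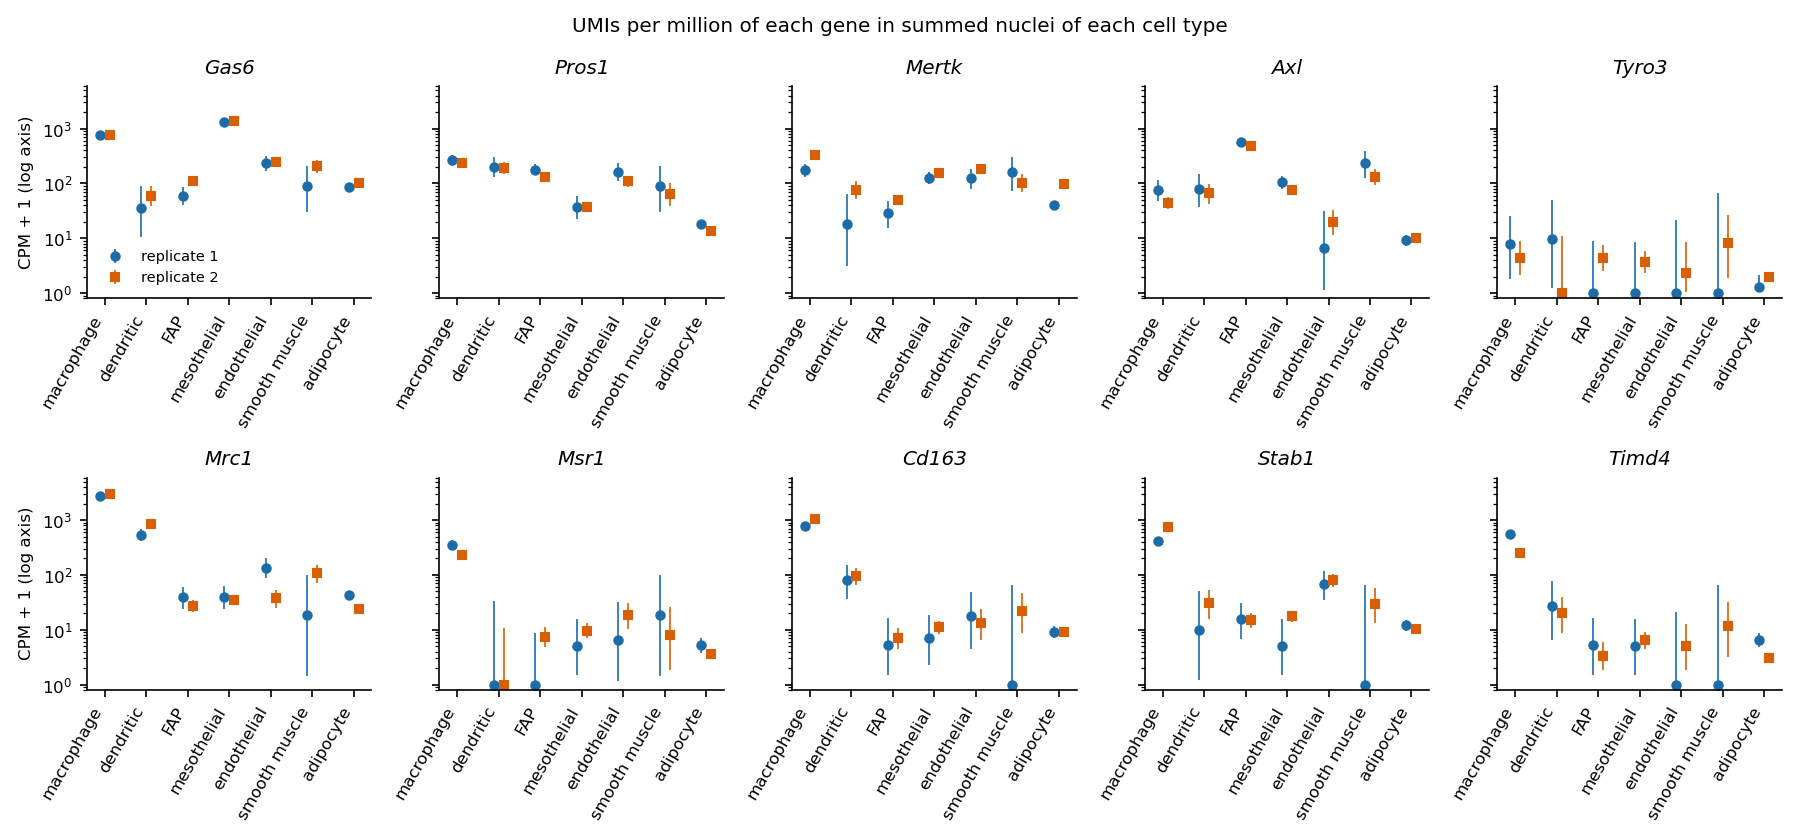
Level of each of the 10 members in the 7 cell types, as CPM + 1 on a log axis, with 1 point per library. Bars are 95% Poisson intervals, which cover counting error only.

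Gas6 encodes the ligand that can engage all 3 TAM receptors. Its level was 1319 CPM in replicate 1 and 1363 in replicate 2 in mesothelial-like nuclei, 763 and 769 in macrophage-like nuclei, and 233 and 242 in endothelial-like nuclei. Smooth muscle-like nuclei had 89.0 and 205 CPM, adipocyte-like nuclei 84.9 and 99.9, FAP-like nuclei 58.8 and 108, and dendritic-like nuclei 35.1 and 59.1. The first 3 types kept their order in both libraries, while each of the last 4 overlapped its neighbour. The third place is thinly held in replicate 1: 36 of the 42 endothelial-like UMIs came from 8 nuclei (485 CPM), and the other 48 nuclei had 56.8 CPM from 6 UMIs. Gas6 was higher in mesothelial-like sums in both libraries, with a log2 fold change of 3.17 ± 0.17 (standard error derived from the F statistic) and an adjusted p of 5.01e-25 (edgeR, Benjamini-Hochberg). In macrophage-like sums its log2 fold change was 2.16 ± 0.18 (edgeR, Benjamini-Hochberg adjusted p 9.45e-16), from library log2 ratios of 2.48 and 1.99. Dendritic-like sums, the other myeloid type, went the other way at -2.50 ± 0.34 (edgeR, Benjamini-Hochberg adjusted p 9.71e-09). Since types differ in number of nuclei and in UMIs per nucleus, the split of all Gas6 UMIs differed from the order of levels: 42.0% and 49.4% lay in mesothelial-like nuclei, 36.5% and 33.0% in adipocyte-like nuclei and 14.6% and 10.2% in macrophage-like nuclei.

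Pros1 encodes protein S, a ligand of Mertk and Tyro3 that also acts as an anticoagulant in plasma. It had 266 and 237 CPM in macrophage-like nuclei, 202 and 191 in dendritic-like nuclei, 178 and 129 in FAP-like nuclei and 161 and 108 in endothelial-like nuclei. It fell to 89.0 and 63.6 CPM in smooth muscle-like nuclei, 36.8 and 35.5 in mesothelial-like nuclei and 17.4 and 12.8 in adipocyte-like nuclei. Only the FAP-like and endothelial-like values overlapped in this order. The log2 fold change in macrophage-like sums was 1.74 ± 0.19 (edgeR, Benjamini-Hochberg adjusted p 6.97e-12), with both libraries above the other types. It was 1.26 ± 0.24 in dendritic-like sums (edgeR, Benjamini-Hochberg adjusted p 1.90e-05) and 0.94 ± 0.19 in FAP-like sums (edgeR, Benjamini-Hochberg adjusted p 8.45e-05). Mesothelial-like nuclei, with the highest Gas6 level, thus had one of the 2 lowest Pros1 levels, and there Pros1 was called lower, at -1.43 (edgeR). The difference between the 2 ligands was not tested.

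Mertk encodes the TAM receptor known for the uptake of dying cells by macrophages. Its level was 174 CPM in replicate 1 and 323 in replicate 2 in macrophage-like nuclei, 122 and 181 in endothelial-like nuclei, 127 and 151 in mesothelial-like nuclei and 160 and 102 in smooth muscle-like nuclei. Adipocyte-like nuclei had 40.2 and 96.8 CPM, dendritic-like nuclei 17.5 and 75.2 and FAP-like nuclei 27.3 and 48.7. Replicate 1 was the lower library in 6 of these 7 types, and macrophage-like nuclei overlapped endothelial-like nuclei across the libraries. Within each library macrophage-like nuclei were the highest type, by a small margin in replicate 1, with log2 ratios to the other types of 1.41 and 1.64. The log2 fold change was 1.56 ± 0.21 (edgeR, Benjamini-Hochberg adjusted p 5.93e-09). In mesothelial-like sums it was 0.63 ± 0.22 (edgeR, Benjamini-Hochberg adjusted p 0.0223), a call lost in 3 of 11 alternatives. Although the level per UMI was highest in macrophage-like nuclei, 60.5% and 69.7% of all Mertk UMIs lay in the many adipocyte-like nuclei and 11.6% and 9.33% in macrophage-like nuclei.

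Axl encodes the TAM receptor for which Gas6 is the ligand. It had 577 and 488 CPM in FAP-like nuclei, 231 and 131 in smooth muscle-like nuclei, 104 and 76.0 in mesothelial-like nuclei, 78.9 and 64.5 in dendritic-like nuclei and 74.9 and 42.6 in macrophage-like nuclei. Endothelial-like nuclei had 5.56 and 19.0 CPM and adipocyte-like nuclei 8.16 and 9.08. FAP-like nuclei lay above every other type in both libraries, with 63.4% and 59.9% of all Axl UMIs. The log2 fold change in FAP-like sums was 3.59 ± 0.17 (edgeR, Benjamini-Hochberg adjusted p 2.84e-27), and in smooth muscle-like sums it was 1.41 ± 0.31 (edgeR, Benjamini-Hochberg adjusted p 0.000539). In macrophage-like sums Axl was the member tested that was not called, at -0.35 ± 0.27 (edgeR, Benjamini-Hochberg adjusted p 0.386), with library log2 ratios of 0.10 and -0.57. Mertk and Axl thus differed in the type with their highest level, macrophage-like for Mertk and FAP-like for Axl.

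Tyro3 encodes the TAM receptor best known from the nervous system. It had 2 and 5 UMIs in macrophage-like nuclei, 6.81 and 3.38 CPM, and lay between 0 and 8.77 CPM in the other 6 summed types, and every type overlapped its neighbour in the order of levels. Without the count filter edgeR tested it and called it in no type, with unadjusted p from 0.0906 to 0.987; in macrophage-like sums its log2 fold change was 1.02 ± 0.89 (edgeR, Benjamini-Hochberg adjusted p 0.731).

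Mrc1 encodes the mannose receptor CD206, which takes up glycoproteins and is a marker of resident macrophages. Its level was 2778 CPM in replicate 1 and 3058 in replicate 2 in macrophage-like nuclei and 535 and 855 in dendritic-like nuclei. Endothelial-like nuclei had 133 and 36.6 CPM, smooth muscle-like nuclei 17.8 and 106, and the other summed types at most 42.3, while nuclei without a name had 60.1 and 120.1 and those like T and NK cells 41.7 and 138. Macrophage-like nuclei held 66.2% and 73.8% of all Mrc1 UMIs, and neither library overlapped another type. The log2 fold change was 5.29 ± 0.19 in macrophage-like sums (edgeR, Benjamini-Hochberg adjusted p 3.65e-34) and 2.87 ± 0.23 in dendritic-like sums (edgeR, Benjamini-Hochberg adjusted p 1.07e-16). In endothelial-like sums Mrc1 was called lower, at -1.15 (edgeR, Benjamini-Hochberg adjusted p 0.0133), but the library log2 ratios were 0.20 and -1.82, so replicate 1 alone did not show that direction. The endothelial-like level of replicate 1 is thinly held: its 24 UMIs came from 6 nuclei, and 1 nucleus held 12 of them.

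Cd163 encodes the receptor for complexes of haemoglobin and haptoglobin. It had 776 and 1066 CPM in macrophage-like nuclei and 78.9 and 94.1 in dendritic-like nuclei, with no other summed type above 21.2; nuclei without a name had 30.03 and 30.9. Macrophage-like nuclei stood above the rest in both libraries, at library log2 ratios of 5.69 and 5.64. The log2 fold change there was 6.01 ± 0.18 (edgeR, Benjamini-Hochberg adjusted p 4.08e-38), and in dendritic-like sums it was 1.96 ± 0.33 (edgeR, Benjamini-Hochberg adjusted p 2.68e-06). The dendritic-like call holds for the mean of log2 levels alone: the plain mean of the other types, with macrophage-like nuclei among them, was 135 and 187 CPM, above the dendritic-like level in both libraries. The macrophage markers that dendritic-like nuclei held were given earlier, and their part in these Mrc1 and Cd163 calls was not tested.

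Stab1 encodes stabilin-1, an endocytic receptor of macrophages and of sinusoidal and lymphatic endothelium. It had 409 and 744 CPM in macrophage-like nuclei, 66.7 and 78.5 in endothelial-like nuclei and at most 29.6 in the other summed types; nuclei without a name had 35.04 and 67.6. It was thus highest in macrophage-like nuclei in both libraries, at a log2 fold change of 4.81 ± 0.19 (edgeR, Benjamini-Hochberg adjusted p 2.12e-31). Endothelial-like sums were also called, at 1.26 ± 0.31 (edgeR, Benjamini-Hochberg adjusted p 0.00133), again for the mean of log2 levels alone, since the plain mean of the other types was 74.5 and 140.4 CPM. Among the endothelial-like nuclei, a subcluster of 8 and 47 nuclei had 94.3 and 241 CPM, from 7 and 24 UMIs, against 47.3 and 53.2 in the subcluster of 48 and 325 nuclei.

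Msr1 encodes the class A scavenger receptor for modified lipoproteins. It had 351 and 229 CPM in macrophage-like nuclei, 0 UMIs in dendritic-like nuclei of either library, and at most 17.8 CPM in the other summed types. The few monocyte-like nuclei, which were not tested, had 0 UMIs in replicate 1 (8 nuclei) and 289 CPM from 16 UMIs in replicate 2 (27 nuclei), above the macrophage-like level of that library. In dendritic-like sums a floor of 3 counts per library would be 26.3 and 8.06 CPM, so both libraries lay below macrophage-like levels. The library log2 ratios in macrophage-like sums were 5.32 and 4.43 with a pseudocount of 5 CPM, and edgeR called it higher; its fitted fold change rests on the prior count given to types at 0 and is not given. The fitted fold change in dendritic-like sums rests on that prior count too and is not given. edgeR called Msr1 lower there against a mean of log2 levels that includes macrophage-like nuclei. That call does not show a level below that of types other than macrophage-like nuclei.

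Timd4 encodes Tim-4, which binds phosphatidylserine itself and marks long-lived resident macrophages. It had 565 CPM in replicate 1 and 247 in replicate 2 in macrophage-like nuclei, 26.3 and 18.8 in dendritic-like nuclei and at most 10.6 in the other summed types; nuclei without a name had 30.03 and 16.5, and 1 UMI gave 68.2 in monocyte-like nuclei of replicate 1. Replicate 1 was the higher library for Timd4, whereas replicate 2 was for Stab1, Cd163 and Mertk. The log2 fold change was 5.83 ± 0.24 (edgeR, Benjamini-Hochberg adjusted p 3.90e-31), higher in both libraries.

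**Figure D2:**
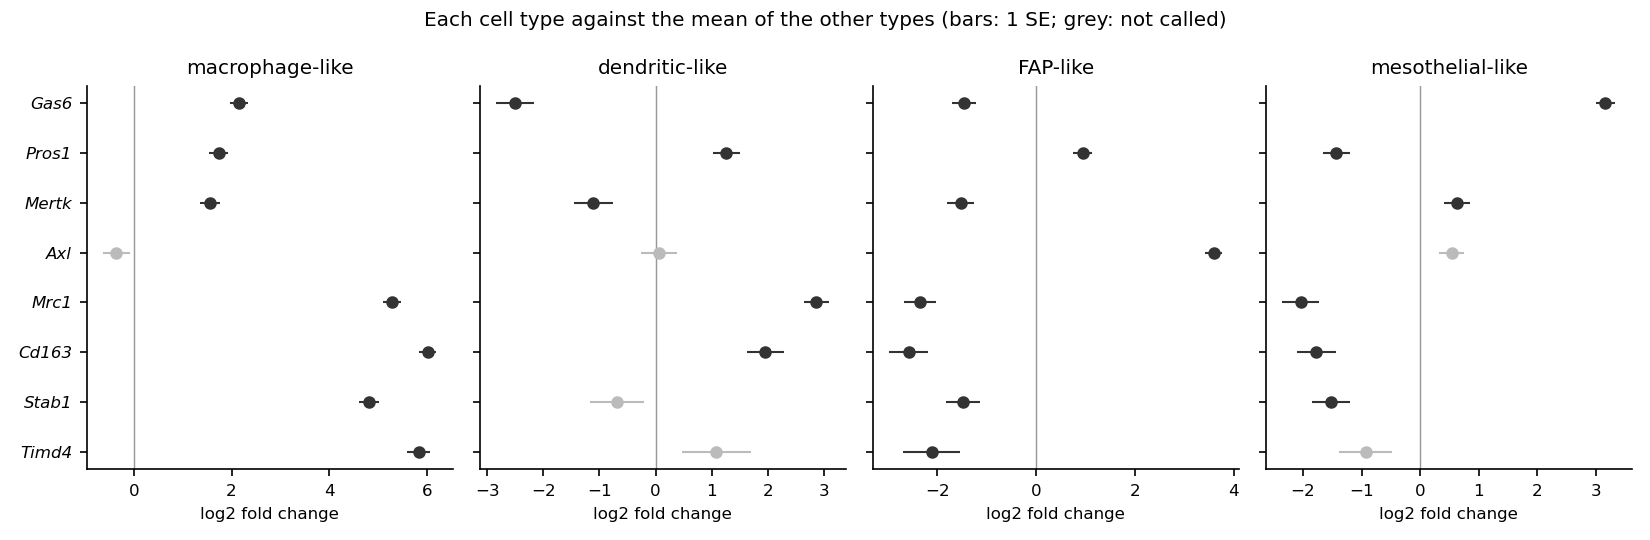
Log2 fold change of the members against the mean of the other types in macrophage-like, dendritic-like, FAP-like and mesothelial-like sums, with bars of 1 standard error derived from the F statistic. Grey marks values not called; Tyro3 did not pass the count filter, and Msr1 is left out because its fitted value rests on the prior count.

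The 4 scavenger receptors with the largest fitted log2 fold changes among those given, Mrc1, Cd163, Stab1 and Timd4, are shown by the 250 bases before their start, since their levels were high in the same type. The bases come from RefSeq on GRCm38.p6, which held 9 of the 10 members by symbol (not Msr1). Both strands were searched for the core motif of PU.1, a factor of the myeloid lineage, spelled GAGGAA, or TTCCTC on the other strand. The motif was in 3 of the 9 windows, those of Mrc1 (3 matches, which begin 180, 167 and 35 bases before the start), Stab1 (1 match, at 30) and Axl (1 match, at 130), and in 23.3% of all 32851 promoter windows of the same length. The windows lie at chr2:14229164-14229413 (plus strand, Mrc1), chr6:124304401-124304650 (plus strand, Cd163), chr14:31168642-31168891 (minus strand, Stab1) and chr11:46810549-46810798 (plus strand, Timd4), and capitals mark a match to the motif. A match is a description of letters and not a bound site.
Mrc1: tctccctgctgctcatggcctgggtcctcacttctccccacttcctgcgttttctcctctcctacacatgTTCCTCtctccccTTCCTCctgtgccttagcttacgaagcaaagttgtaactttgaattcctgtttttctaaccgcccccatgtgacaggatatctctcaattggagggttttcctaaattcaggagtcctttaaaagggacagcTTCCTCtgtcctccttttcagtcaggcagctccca
Cd163: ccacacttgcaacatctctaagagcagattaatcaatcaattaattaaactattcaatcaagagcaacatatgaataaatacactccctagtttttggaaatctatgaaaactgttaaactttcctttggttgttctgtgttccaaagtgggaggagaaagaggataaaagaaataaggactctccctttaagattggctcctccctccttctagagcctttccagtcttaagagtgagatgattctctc
Stab1: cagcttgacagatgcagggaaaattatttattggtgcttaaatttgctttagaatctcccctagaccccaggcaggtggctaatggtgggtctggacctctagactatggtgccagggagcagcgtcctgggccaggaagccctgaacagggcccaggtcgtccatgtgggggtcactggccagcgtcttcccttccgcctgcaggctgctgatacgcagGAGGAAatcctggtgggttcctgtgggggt
Timd4: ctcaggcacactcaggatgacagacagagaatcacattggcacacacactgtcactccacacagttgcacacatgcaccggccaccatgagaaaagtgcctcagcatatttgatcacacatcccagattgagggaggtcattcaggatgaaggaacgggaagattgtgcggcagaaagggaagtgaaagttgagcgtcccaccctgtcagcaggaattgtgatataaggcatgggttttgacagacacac

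Levels of different genes are set side by side here per length, on 2 scales, although a UMI counts a molecule and need not scale with length. Per kilobase of exon union, macrophage-like nuclei had 355 and 391 CPM of Mrc1, 140 and 192 of Cd163, and 139 and 140 of Gas6. Timd4 (143 and 62.4), Stab1 (39.7 and 72.4) and Mertk (36.1 and 67.2) were uneven, with Timd4 the highest of these 3 in replicate 1 and the lowest in replicate 2. Msr1 had 55.3 and 36.1 and Pros1 42.0 and 37.5, and Axl (8.16 and 4.64) and Tyro3 (1.02 and 0.507) were lowest in both libraries. Mrc1 thus led on this scale in both libraries. Gas6, a ligand, stood beside Cd163 in replicate 1 (139 and 140) and below it in replicate 2 (140 and 192). Nuclear RNA also holds introns, and per kilobase of gene body Cd163 (29.9 and 41.1 CPM) came above Mrc1 (27.0 and 29.8), so the lead of Mrc1 depends on the length used. Among genes of the count matrices, exons of Gas6 and Stab1 overlap those of Tmem255b (154 bases) and Nt5dc2 (113 bases) on the other strand. Genes not in the matrices share exon bases on the other strand too. These are Gm52148 (387 bases) and Gm62616 (65) with Stab1, Gm39931 (145) with Mertk and Gm60971 (32) with Pros1. The strand setting of the counting is not given in the sources used here.

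The share of macrophage-like nuclei with a UMI was taken after each nucleus had been thinned to 1000 UMIs, since deeper nuclei show more genes. Mrc1 was found in 72.5% of them in replicate 1 (95% interval 64.9% to 79.3%) and 81.8% in replicate 2 (78.8% to 84.6%), against 4.07% and 2.26% of adipocyte-like nuclei. Cd163 was found in 33.1% (25.9% to 41.0%) and 45.5% (41.8% to 49.3%), against 1.03% and 0.763%. Stab1 was found in 28.1% (21.3% to 35.8%) and 43.3% (39.6% to 47.0%), against 1.34% and 1.08%. These 3 scavenger receptors were all found in a greater share of macrophage-like nuclei in replicate 2. Timd4 went the other way, with 26.9% (20.2% to 34.4%) and 19.0% (16.2% to 22.1%), against 0.773% and 0.239%. Msr1 was found in 18.1% (12.5% to 25%) and 14.6% (12.1% to 17.4%), against 0.515% and 0.284%.

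Of the ligands, Gas6 was found in 43.1% (35.3% to 51.2%) and 42.0% (38.4% to 45.7%) of macrophage-like nuclei, against 7.37% and 9.48% of adipocyte-like nuclei. Pros1 was found in 20.6% (14.6% to 27.7%) and 16.1% (13.5% to 19.0%), against 1.91% and 1.59%. Of the receptors, Mertk was found in 15% (9.85% to 21.5%) and 24.2% (21.1% to 27.5%), against 3.97% and 8.88%. Axl, by contrast, was found in only 5.62% (2.60% to 10.4%) and 4.90% (3.44% to 6.75%), against 1.08% and 1.17%, and Tyro3 in 0.625% and 0.280%. In other types, Axl was found in 34.6% and 32.7% of FAP-like nuclei and Gas6 in 55.3% and 64.1% of mesothelial-like nuclei.

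**Figure D3:**
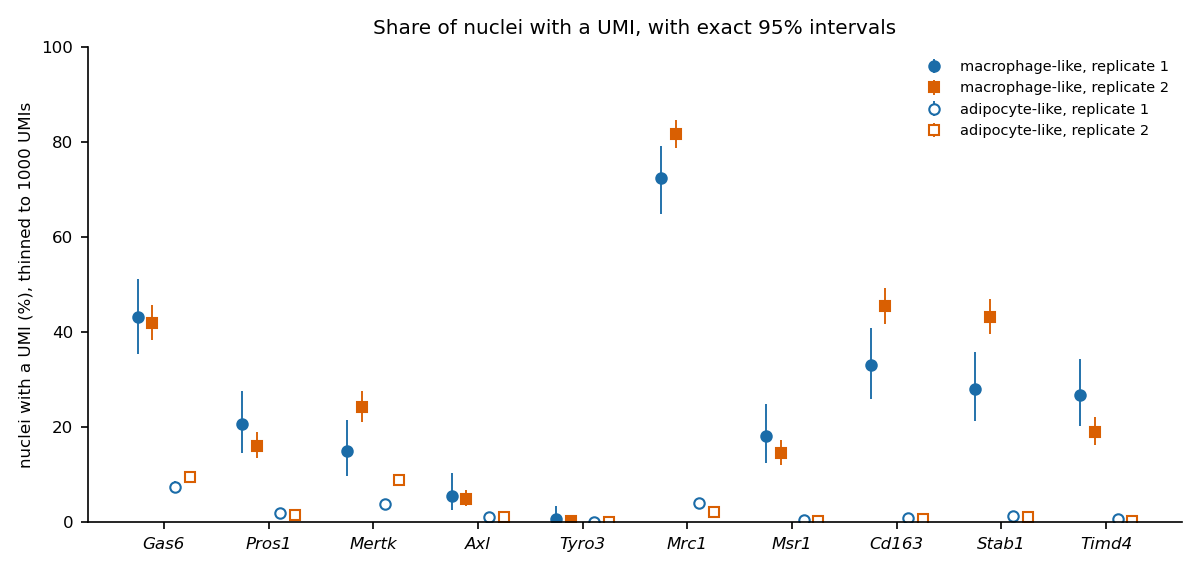
Share of nuclei with a UMI of each member after thinning to 1000 UMIs, in macrophage-like nuclei (filled) and adipocyte-like nuclei (open), by library. Bars are 95% Clopper-Pearson intervals.

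Many single macrophage-like nuclei held several members at once, while others held 1 or none. After thinning, 23.1% of the macrophage-like nuclei in replicate 1 and 24.4% in replicate 2 held exactly 3 of the 10 members, 10.6% and 10.8% held exactly 5, and 5% and 5.6% held none. Exactly 1 member was held by 20% and 11.1%, exactly 2 by 22.5% and 22.3%, exactly 4 by 18.1% and 23.4%, and exactly 6 by 0.625% and 2.10%. Gas6 was found in 56.0% of the nuclei with Mrc1 in replicate 1 (65 of 116) and in 9.09% of the 44 without it. In replicate 2 these shares were 47.1% (275 of 584) and 19.2% (of 130). Cd163 followed Mrc1 in the same way, with 44.0% against 4.55% in replicate 1 and 49.8% against 26.2% in replicate 2, and so did Stab1, with 36.2% against 6.82% and 47.9% against 22.3%. Timd4 had no such pattern in both libraries, with 24.1% against 34.1% in replicate 1 and 19.7% against 16.2% in replicate 2. Mertk, a receptor for Gas6, was found in 13% of the 69 nuclei with Gas6 and 16.5% of the 91 without it in replicate 1, and in 24.3% and 24.2% in replicate 2. Gas6 and the mannose receptor were thus often seen in the same nuclei, and Timd4 was spread otherwise.

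Subclusters of the immune nuclei give that spread in more detail, as a description with no test. The largest macrophage-like subcluster held 130 and 656 nuclei, with Retnla, C1qc and Cd209f among its markers, and a small one held 28 in each library, with Saa3, Prg4, Alox15 and Cd5l. The small subcluster made up 17.5% of macrophage-like nuclei in replicate 1 and 3.92% in replicate 2, and its median mitochondrial share was 10.3% and 5.61%. Another subcluster of 2 and 30 nuclei had the highest doublet scores. Mrc1 had 3693 and 3295 CPM in the large subcluster and 80.5 and 43.8 in the small one, the latter from 6 and 3 UMIs. Cd163 had 1022 and 1151 CPM against 13.4 and 29.2, from 1 and 2 UMIs in the small one, and Stab1 542 and 801 against 80.5 and 58.4. Gas6 had 1055 and 781 CPM against 13.4 and 146. These 4 genes were thus low in the small subcluster in both libraries.

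Timd4 and Msr1 had the reverse pattern. Timd4 had 361 and 235 CPM in the large subcluster and 1207 and 700 in the small one, from 90 and 48 UMIs there. Msr1 had 219 and 209 CPM in the large and 751 and 817 in the small one, from 56 UMIs in each library. Pros1 differed less, with 242 and 239 CPM against 322 and 292, the latter from 24 and 20 UMIs, and Mertk had 200 and 337 CPM against 107 and 160. Between these 2 subclusters Timd4 and Gas6 thus lay on opposite sides, while the intervals of counting error of Pros1, the other bridging ligand, overlapped in both libraries. In replicate 2 Gas6 was higher still in the subcluster of 30 nuclei with the highest doublet scores, at 1076 CPM. The uneven share of the small subcluster runs beside the library differences in Timd4, and its part in them was not tested.

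**Figure D4:**
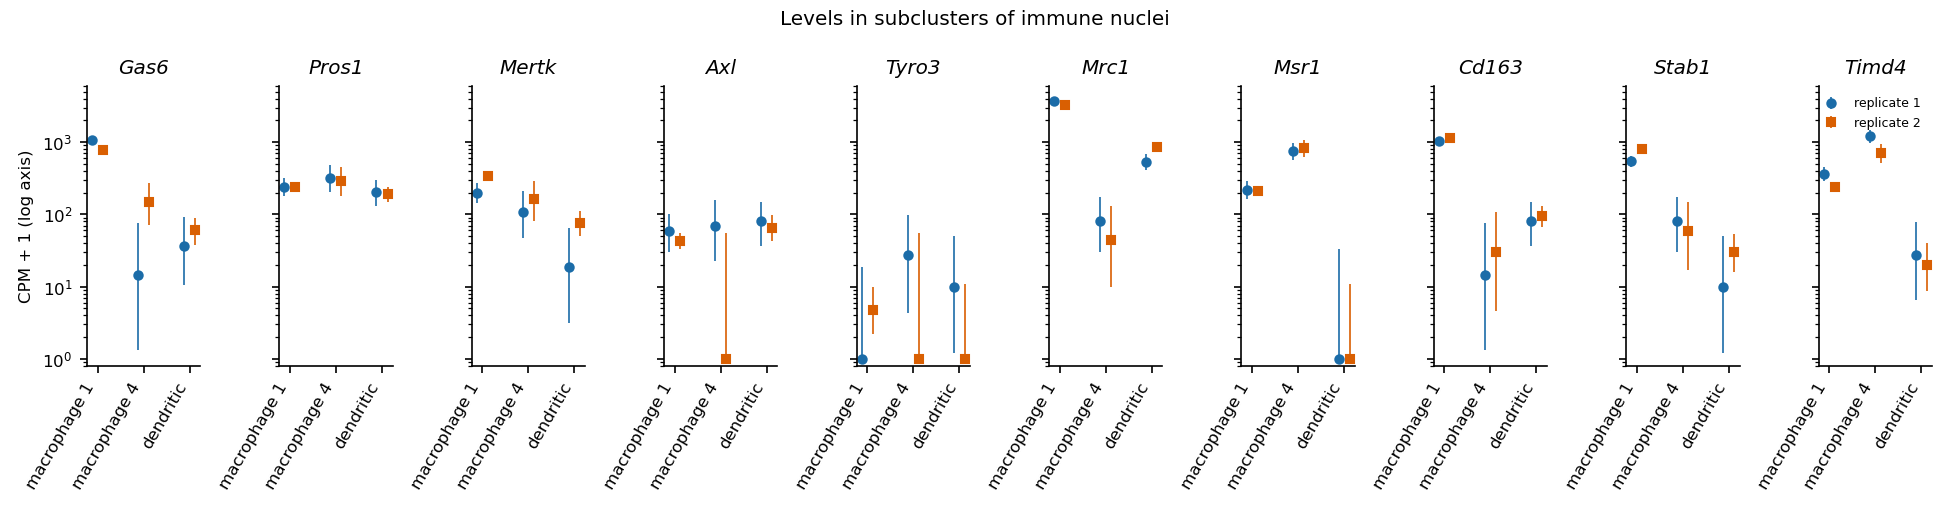
Level of the 10 members in the large macrophage-like subcluster (macrophage 1), the small one (macrophage 4) and the dendritic-like nuclei, by library.

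Other genes of the pathway were counted in macrophage-like sums by edgeR in 8 lists of 78 genes, beside a median log2 fold change of -0.02 over all genes tested, of which 13.6% were called higher and 8.91% lower. Of 6 genes for ligand maturation and other TAM ligands, 3 were tested, 1 was higher and 0 lower by edgeR (median log2 fold change -0.18): Lgals3, for galectin-3, at 0.77 ± 0.28. Lgals3 had 74.9 and 65.6 CPM against a mean of 91.2 and 51.6 in the other types, so in replicate 1 its level was below that plain mean. Of 8 genes for receptor shedding and signalling, 7 were tested, 2 were higher and 1 lower (median 0.30). Ifnar1, for a chain of the type I interferon receptor that works with TAM receptors, was higher at 1.08 ± 0.27, Grb2 at 0.63 ± 0.21, and Pik3r1 was lower at -0.85 ± 0.22. The call of the first list was in 1 direction and those of the second in both.

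Of 15 genes for recognition of phosphatidylserine and dying cells, 11 were tested, 4 were higher and 2 lower (median 0.25). Trem2 was higher at 4.57 ± 0.59, from 47.7 and 41.9 CPM against a plain mean of 8.04 and 6.22 in the other types. Cd300lb was higher at 4.09 ± 0.30, from 170.2 and 101 CPM against 51.6 and 30.5. Cd300a was higher at 3.12 ± 0.35, from 47.7 and 82.5 CPM against 22.4 and 23.5. These fold changes are against the mean of log2 levels, and those of Cd300lb and Cd300a are larger than the plain means would give. Anxa1 was lower at -1.01 ± 0.26 and Itgav at -0.97 ± 0.26. All 11 genes of the engulfment machinery were tested, 5 were higher and 2 lower (median 0.57). Vav1 (2.99 ± 0.35), Rhog (2.34 ± 0.31) and Vav3 (2.07 ± 0.18) were higher, and Gulp1 (-2.05 ± 0.28) and Elmo2 (-1.06 ± 0.35) were lower. Other types had calls too. In dendritic-like sums the engulfment list had 7 higher and 2 lower (median 1.64). The recognition list had 5 and 2 there (0.77), against 13% and 12.4% of all genes. In FAP-like sums these were 1 and 3 (-0.25) and 6 and 2 (0.87), against 13.4% and 7.48%. In adipocyte-like sums they were 0 and 6 by edgeR (-0.74) and 1 and 8 (-0.81), against 30.2% and 28%. The counts that follow are again of macrophage-like sums. All 7 genes for lipid efflux after engulfment were tested, 3 were higher and 1 lower (median 0.55): Ucp2 (3.63 ± 0.26), Abcg1 (1.33 ± 0.33) and Abca1 (0.55 ± 0.20) were higher, and Nr1h3, for the receptor LXR alpha, was lower (-1.07 ± 0.35).

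Of 15 genes for scavenger receptors of classes A to J other than the members, 11 were tested, 6 were higher and 2 lower (median 0.65). Cd5l (6.21 ± 0.42) had 344 and 60.2 CPM, with replicate 1 higher as for Timd4, Cd68 (4.78 ± 0.27) had 289 and 163, and Cd36 (1.29 ± 0.19) had 1974 and 1281. Scara3 (-1.46 ± 0.55) and Scara5 (-1.07 ± 0.31) were lower. Of the 3 other genes of the mannose receptor family, 0 were higher and 2 lower by edgeR (median -1.26), Mrc2 at -1.75 ± 0.38 and Pla2r1 at -1.26 ± 0.32. All 13 genes known from resident macrophages were higher and 0 lower by edgeR (median 5.36), with Cd209f (6.83 ± 0.21), Lyve1 (5.96 ± 0.20) and Cd209b (5.76 ± 0.22) the largest.

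The genes most like each member were found by Pearson correlation over the 14 sums, which share libraries and types, and are given as a description. For Mrc1 they were Clec10a (0.986), Clec4a1 (0.983) and F13a1 (0.982), and for Cd163 they were C1qc (0.984), Gpr34 (0.980) and the member Mrc1 (0.977). For Stab1 they were Ednrb (0.972), Hpgds (0.957) and Cd38 (0.934). Timd4 was most like Serpinb2 (0.974), Ms4a6d (0.973) and 4930432J09Rik (0.968), and Msr1 most like Ninj1 (0.937), Saa3 (0.932), a marker of the small subcluster, and P2ry13 (0.922). Among themselves the scavenger receptors correlated between 0.589 (Mrc1 and Msr1) and 0.977 (Mrc1 and Cd163), with Cd163 and Timd4 at 0.957. Gas6 was most like Scn3b (0.899), Gabra4 (0.893) and Cntn6 (0.878), and Pros1 most like Man1c1 (0.957), Tmem229b (0.949) and Wipf1 (0.943). Mertk was most like Plekhg5 (0.942), Klf8 (0.883) and Gtdc1 (0.846), and Axl most like Plxdc2 (0.925), Anpep (0.917) and Arhgap6 (0.917). Over the same sums Gas6 correlated with Mertk at 0.744 and with Axl at -0.105, and Pros1 with Mertk at 0.0628.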

How the data were processed

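The deposited matrices give a UMI count per gene and barcode, which the authors made from single-nucleus libraries; the annotation version is not given in the sources used here. The members and gene lists were chosen with earlier results of these data known, and the rule that names clusters was set after the clusters had been seen.

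Called barcodes numbered 7344 in replicate 1 and 17148 in replicate 2 (85 in both). Limits of more than 500 genes, more than 1000 UMIs and less than 15% mitochondrial UMIs left nuclei with a median of 2221 and 2726 UMIs and 1150 and 1527 genes. Of the scaled counts, 1000 variable genes without the members and listed genes gave 30 principal components (16 in subclusters), which were corrected for the library by the Harmony method written in numpy, and 20 nearest neighbours were clustered by leidenalg at a resolution of 0.1 at 2 levels (seed 1). Clusters were named from 16 marker lists, where a marker needed a log2 fold of 1 and 5% of nuclei, and a name needed 3 markers and a share of 0.5 of its list. Scrublet, with 6% expected doublets, called 1 nucleus in each library, and these were kept.

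UMIs were summed per library and type with at least 20 nuclei in each library. edgeR, with TMM scaling, filterByExpr, a block for the library and the quasi-likelihood F test, set each type against the mean of the others, with Benjamini-Hochberg adjustment over all genes tested at 0.05; the calls come from 2 mice. Same-numbered sums come from the same mouse; over 21 pairs of types, the correlation of their deviations over 11597 genes was 0.158 to 0.561 (median 0.309). The values after ± were not fitted by edgeR. Each is the absolute log2 fold change divided by the square root of F, an approximate standard error. At the smallest sum, smooth muscle-like nuclei of replicate 1, 3 UMIs are 53.4 CPM.

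Nuclei were thinned to 1000 UMIs for shares (Clopper-Pearson 95% intervals). Library log2 ratios used a pseudocount of 5 CPM. Lengths, positions and overlaps came from GENCODE vM39 (GRCm39), and promoters from RefSeq (GRCm38.p6). All members are given in every type or by range; from each list at most the 3 genes with the largest log2 fold change in each direction among those called in macrophage-like sums are named, and for each member with at least 50 UMIs the 3 genes with the highest Pearson correlation of log2(CPM + 5), centred within each library; Tyro3 failed the filter. The nuclei shown beside Mrc1, the subclusters described and the doublet scores were chosen after their values were seen.

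Alternatives were DESeq2 with its size factors, no filter on low counts, no replicate block, a mitochondrial limit of 5%, a resolution of 0.3, 15 components, no integration, doublets removed (the highest 6% of scores), each library alone, no thinning or thinning to 500 UMIs, and gene body length. Versions were R 4.3.3 with edgeR 4.0.16 and DESeq2 1.42.0, and Python 3.11.15 with scanpy 1.11.5, leidenalg 0.10.2, scikit-learn 1.9.0, numpy 2.4.6, igraph 0.11.9, scipy 1.17.1, anndata 0.12.19, matplotlib 3.10.9, pandas 2.3.3 and statsmodels 0.14.6.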

Additional observations from a re-analysis of the deposited data

How the results depend on the processing

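The count of members called higher was 8 in macrophage-like sums in the 10 alternatives that gave a value and 2 in FAP-like sums in all 11, with the same genes. Over all genes the share called higher ranged from 3.74% (no filter) to 15.5% (resolution 0.3) in macrophage-like sums. In FAP-like sums it ranged from 4.12% (no filter) to 14.5% (doublets removed). A mitochondrial limit of 5% gave no value for macrophage-like sums, since 9 and 124 nuclei were left under that name. Groups were drawn and named anew at that limit. In the main run replicate 2 had 714 macrophage-like nuclei with a median mitochondrial share of 1.38%, so the limit alone would not drop most of them. What became of their names was not tested. Member and type pairs called higher were 17 and ranged from 16 to 19 in the other 10 alternatives, but were 3 of 27 tested at the 5% limit, which left fewer types. At that limit 7.43% of all genes were called higher in FAP-like, 21.3% in adipocyte-like and 7.85% in mesothelial-like sums. Among the 17, the call of Mertk in mesothelial-like sums was lost in 3 alternatives, with adjusted p up to 0.328, and the others were kept wherever they were tested. Leaving out macrophage subclusters 4 and 6, leaving out adipocyte subcluster 2, and a resolution of 0.3 in the first clusters alone were chosen after seeing the data.

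With no replicate block, 8 members were higher in macrophage-like sums (8.42% of all genes), 2 in FAP-like sums (9.33%) and 16 pairs in all. The share of all genes called higher ran from 5.22% in smooth muscle-like to 20.6% in adipocyte-like sums. In that fit 4 calls were lost: Mertk in dendritic-like (adjusted p 0.107) and mesothelial-like sums (0.328), and Mrc1 (0.409) and Cd163 (0.161) in endothelial-like sums. No other call changed.

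Of the fold changes, 604 kept direction and side of the threshold, 23 lost and 12 gained a call, and 18 turned. At the 5% limit these were, in log2, Msr1 (0.10), Cd163 (0.17) and Stab1 (0.14) in FAP-like, Mertk in adipocyte-like (0.46), and Mrc1 (0.15), Stab1 (0.31) and Timd4 (0.33) in mesothelial-like sums. With no filter they were Axl in dendritic-like (-0.083) and Mertk in smooth muscle-like sums (-0.094). At a resolution of 0.3 they were Gas6 in endothelial-like (-0.072) and Mertk (-0.094) and Mrc1 (0.17) in smooth muscle-like sums; in the first clusters alone -0.032, -0.0087 and 0.25. Msr1 in mesothelial-like sums turned by DESeq2 (-0.25), and Mertk in smooth muscle-like sums with 15 components (-0.15) and with macrophage subclusters left out (-0.061). For Msr1 the main fitted values rest on the prior count given to types at 0. They were -0.10 ± 0.74 in FAP-like and 0.56 ± 1.08 in mesothelial-like sums, not called, so no direction was set there. Mrc1 in endothelial-like sums ranged from -1.82 to 0.20 by library, and Cd163 to Mrc1 per kilobase turned to 0.31 by gene body. The cause was not tested.

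Shares of macrophage-like nuclei (mean of 2 libraries) rise with depth by construction. With no thinning they were Gas6 55.0%, Pros1 29.3%, Mertk 30.2%, Axl 8.02%, Msr1 27.9%, Stab1 49.3% and Timd4 29.4%. At 500 UMIs they were Gas6 26.5%, Pros1 11.2%, Mertk 12.2%, Axl 2.93%, Tyro3 0.140%, Mrc1 62.9%, Msr1 8.93%, Cd163 26.5%, Stab1 21.0% and Timd4 13.2%. At the 5% limit, with 9 nuclei in replicate 1, the libraries could be opposed (Pros1 44.4% and 9.68%, Stab1 0% and 30.6%), and the means were Gas6 20.9%, Pros1 27.1%, Mertk 6.85%, Axl 5.96%, Tyro3 5.56%, Mrc1 49.2%, Stab1 15.3% and Timd4 12.01%. These values describe a class that was grouped and named anew, with 124 nuclei in replicate 2 against 714 in the main run. They are not the shares of the same nuclei under a stricter limit. With doublets removed Gas6 was 43.9%; the other shares moved by less than 1 SD between libraries.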
